A study of Rattus norvegicus with 5 samples.

Results

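The antigen presentation genes of rat retinal Müller cells are described here, namely the genes of the rat major histocompatibility complex (MHC), whose symbols start with RT1-, the class I light chain B2m, the class II invariant chain Cd74, and the peptide processing genes Psmb8, Psmb9, Psme1, Psme2, Tap1 and Tap2. Members were taken by gene symbol, from every probe set whose symbols all start with RT1- or whose only symbol is one of those names. The choice of these genes was made with earlier results of these data known. This gave 51 of the 8799 probe sets on the array, covering 25 genes with 1 symbol, with 17 probe sets in class I, 24 in class II and 10 in processing. Psmb10, the remaining inducible catalytic subunit, had no probe set with its symbol alone.

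Total RNA of Müller cells, the main glia of the retina, was hybridised to 5 Affymetrix RG_U34A arrays. The diabetic group comprised 2 arrays of cells from the retinas of male Sprague-Dawley rats made diabetic with streptozotocin 6 months before and kept on low-dose insulin, with 12 rats in the pool. The second diabetic array is labelled a technical replicate, so both were averaged into 1 diabetic pool. The normal group comprised 3 arrays, each of a separate pool of 12 healthy male rats of that strain. The age of the rats is not given in the labels. The question was which transcripts of Müller cells differ in long-standing diabetes.

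Class I molecules, a heavy chain paired with the light chain B2m, display peptides cut from proteins of the cell itself to cytotoxic T cells. In cells exposed to interferon the proteasome exchanges catalytic subunits for the inducible Psmb8 and Psmb9 and binds the activator built from Psme1 and Psme2, and the cut peptides enter the endoplasmic reticulum through the Tap1 and Tap2 transporter. Class II molecules present peptides taken up from outside the cell, are guided by the invariant chain Cd74, and in the retina are best known on microglia and other immune cells, although Müller cells in culture can also be induced by interferon gamma to make them.

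The arrays had median deposited signals of 62.1 and 73.1 (diabetic) and 27.9 to 91.3 (normal) and were brought to a common distribution by quantile normalisation, with values under 20 set to 20, the floor. Of 8740 probe sets that are not controls, 6118 passed the brightness filter and were tested with limma, and 0 had an adjusted p under 0.05 (98 at an unadjusted p under 0.05, 1.6%). The number of arrays limits every value, since all spread comes from the 3 normal pools, and an exact permutation of 1 pool against 3 cannot give a p under 0.25. Among Müller cell markers Glul, the glutamine synthetase of Müller cells, was at 8290 and 7984 in diabetic and 7532 to 11797 in normal arrays, while the potassium channel Kcnj10 was dim, at 74.8 and 31.2 in diabetic and 41.5 to 78.7 in normal arrays. Normal array 1 stood apart, with correlations of 0.888 and 0.880 to normal arrays 2 and 3 across probe sets, which are not independent. Its ratio of 3' to 5' actin signal was 2.61, close to the 2.55 of diabetic array 2 and above the 1.46 to 1.76 of the remaining 3 arrays. Normal array 3 and diabetic array 2 shared a chip lot and hybridisation day, the only such pair recorded, and the record of diabetic array 1 gives neither.

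Sequences upstream of the genes show which of them carry the element through which interferon-activated factors bind, and are given for members whose signals are described next. They come from RefSeq (build GRCr8), whose promoter table matched 23 of the 25 genes; RT1-A and RT1-DMb had no entry. The interferon-stimulated response element was searched as GAAA, any 2 bases and GAAA, on both strands, from 250 bases before to 50 after each start. It was present in 7 of the 14 class I and processing promoters (B2m, RT1-S3, RT1-N3, Psmb8, Tap1, Tap2 and Psme2), in 0 of 9 class II promoters and in 3.92% of all 33469 promoters. In the first 5 sequences, capitals mark this element and, in B2m and Tap1, a kappaB match as well (GGGA, any base and TTTCC, either strand), and in B2m and Psmb8 also the Y box (CCAAT, either strand). B2m is chr3:129549160-129549329 on the plus strand, and Psmb8 chr20:4657026-4657201, Tap1 chr20:4668544-4668713, Tap2 chr20:4652297-4652466 and Psme2 chr15:33052752-33052921 lie on the minus strand. Each runs from 170 bases before the start to the start itself, except that of Psmb8, which goes on for 6 bases because its element spans the start.
B2m: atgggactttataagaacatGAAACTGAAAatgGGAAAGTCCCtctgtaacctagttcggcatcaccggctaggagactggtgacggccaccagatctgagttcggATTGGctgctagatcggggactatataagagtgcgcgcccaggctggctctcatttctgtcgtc
Psmb8: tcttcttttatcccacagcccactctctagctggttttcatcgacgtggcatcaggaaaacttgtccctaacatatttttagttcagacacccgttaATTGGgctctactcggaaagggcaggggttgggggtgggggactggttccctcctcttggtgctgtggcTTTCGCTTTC
Tap1: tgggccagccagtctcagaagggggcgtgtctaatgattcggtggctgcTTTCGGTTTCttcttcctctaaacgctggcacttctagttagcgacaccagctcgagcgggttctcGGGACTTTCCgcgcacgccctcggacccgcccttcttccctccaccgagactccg
Tap2: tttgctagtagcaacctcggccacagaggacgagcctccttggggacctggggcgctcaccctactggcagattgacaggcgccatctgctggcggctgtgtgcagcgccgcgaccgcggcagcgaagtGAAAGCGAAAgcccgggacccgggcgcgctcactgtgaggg
Psme2: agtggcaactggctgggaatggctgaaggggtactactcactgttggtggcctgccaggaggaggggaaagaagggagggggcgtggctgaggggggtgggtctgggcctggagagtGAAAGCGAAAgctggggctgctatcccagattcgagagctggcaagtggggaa

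The element began 150 bases before the start of B2m, 121 before that of Tap1, 53 before that of Psme2 and 41 before that of Tap2. The kappaB match stood in 2 of 23 member promoters, B2m and Tap1, against 0.362% of all promoters. A gamma-activated site, TTCNNNGAA, was found in 2 of 23, RT1-M3-1 and Psmb8, against 8.87% of all. Tap1 and Psmb9 are divergent neighbours, with starts 457 bases apart on chromosome 20. The Y box, which belongs to the shared promoter module of class II genes, was in 9 of 9 class II promoters, 7 of 8 class I and 2 of 6 processing promoters, against 37.5% of all. It is in capitals in the 130 bases before the start of the class II alpha chains RT1-Da (chr20:4515285-4515414) and RT1-Ba (chr20:4576927-4577056), both on the plus strand. A match is only a match of letters, and no factor binding was measured here.
RT1-Da: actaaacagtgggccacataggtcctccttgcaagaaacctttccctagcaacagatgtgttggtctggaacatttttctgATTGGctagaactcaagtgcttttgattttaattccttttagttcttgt
RT1-Ba: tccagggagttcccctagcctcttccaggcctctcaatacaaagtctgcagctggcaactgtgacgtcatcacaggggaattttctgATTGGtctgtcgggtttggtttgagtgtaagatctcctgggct

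Of the 51 member probe sets 38 passed the brightness filter, and 0 had an adjusted p under 0.05, as was so for 0% of all tested probe sets. The 13 others were too dim, 10 of them at the floor on every array. B2m was the 1 member with an unadjusted p under 0.05, which makes 2.63% of the 38, while 1.6% of all tested probe sets passed that level in either direction and 1.19% above normal. Of the tested members 30 lay above and 8 below normal, with a median log2 difference of 0.42, against 48.8% above and a median of -0.01 over all tested probe sets. The 17 members (44.7%) without overlap had both diabetic signals higher than any normal signal, which held for 9.53% of all tested probe sets. The opposite order, found in 7.01% of all, held for 0 members. A member that was bright only in diabetic cells passed the brightness filter more easily than one that was dim throughout, and several probe sets share a gene or a sequence, so these are not independent counts. The median difference was 0.48 in class I (15 tested), 0.29 in class II (14 tested) and 0.47 in processing (9 tested). In bulk RNA, a different share of cells that make a transcript and a different amount per cell cannot be told apart.

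**Figure D1:**
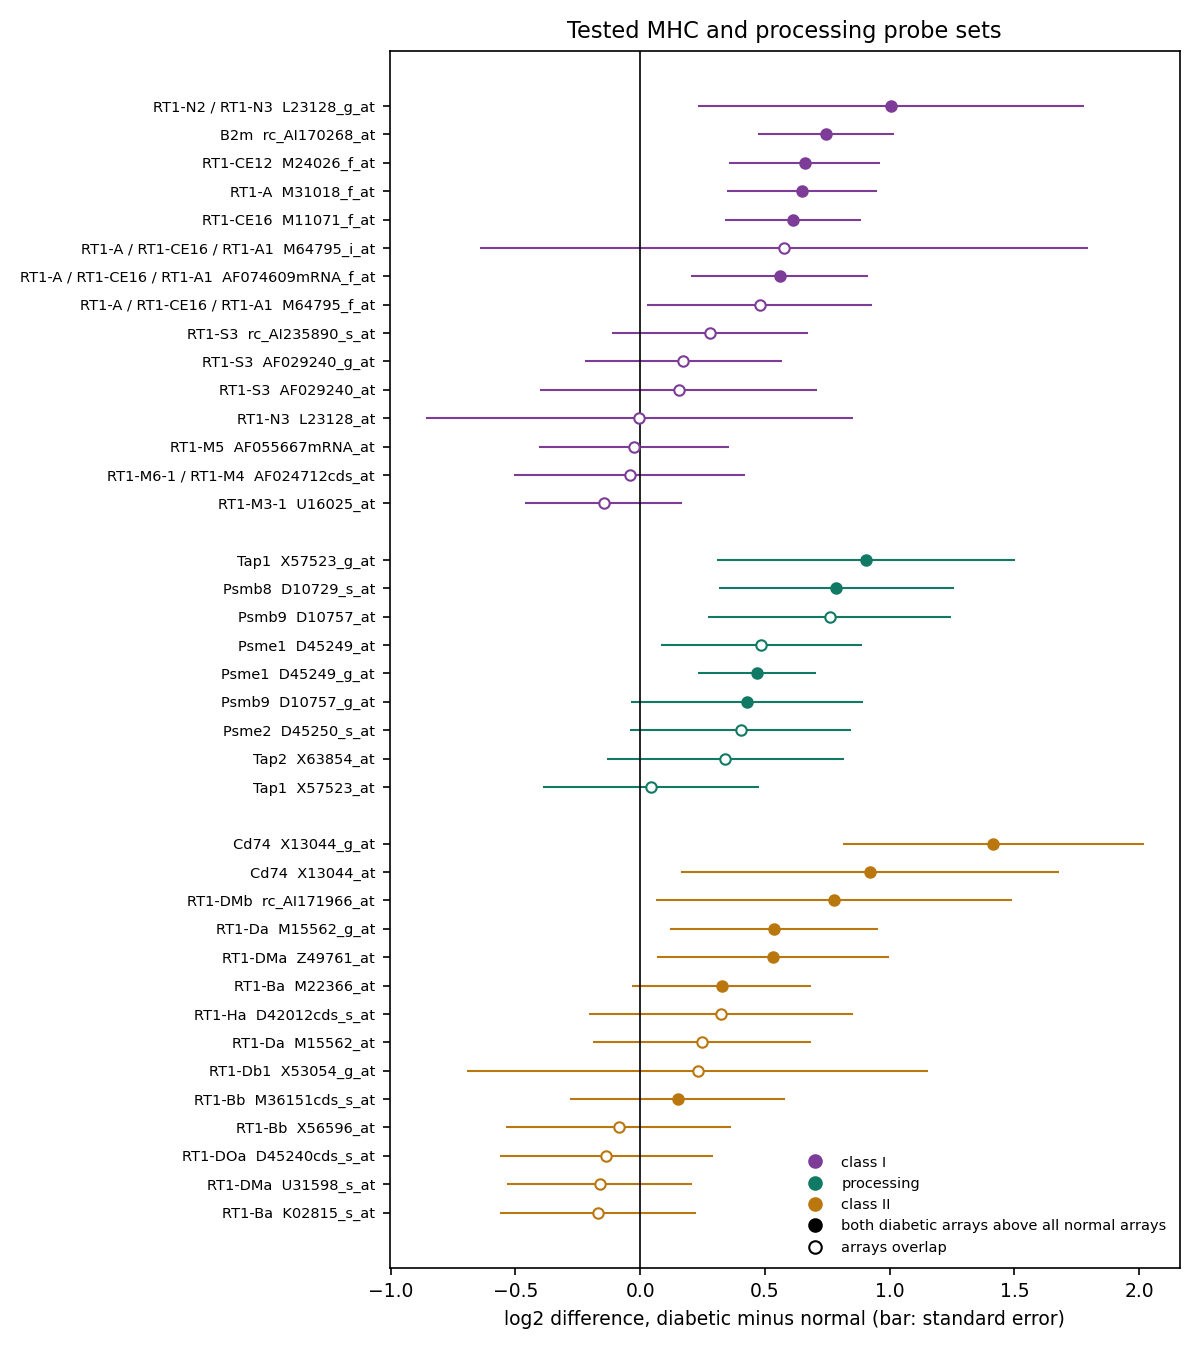
Log2 difference, diabetic minus normal, with its standard error, of the 38 tested probe sets, grouped into class I, processing and class II. Filled points mark the 17 without overlap; all 9 processing probe sets lie right of 0, while class I and class II each have 4 left of it.

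B2m and 4 of the 5 class I heavy chain probe sets shared within a gene family were brighter on both diabetic arrays than on any normal array. B2m had normalised signals of 2045 and 2167 in diabetic arrays, against 1449, 1062 and 1289 in normal arrays. The groups did not overlap and the diabetic arrays lay close together, and differed by 0.74 on the log2 scale (SE 0.27, n = 1 diabetic and 3 normal pools; limma model across all probe sets, unadjusted p = 0.036, adjusted p = 0.9999). This corresponds to 1.68 times the normal signal. Between the arrays of the shared lot and day the log2 difference of B2m was 0.75.

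The heavy chain probe set of RT1-A, the classical class I gene of the rat, had 2058 and 1881 in diabetic arrays, against 1587, 1137 and 1095 in normal arrays (log2 difference 0.65, SE 0.30). RT1-CE12, a heavy chain gene of the RT1-C/E region, had 2232 and 1927 in diabetic arrays, against 1644, 1252 and 1101 in normal arrays (0.66, SE 0.30). RT1-CE16, of the same region, had 1978 and 2773 in diabetic arrays, against 1821, 1471 and 1340 in normal arrays (0.61, SE 0.27). All 3 showed no overlap, and in each the highest normal value was that of normal array 1. The difference of RT1-CE16 was 0.36 without diabetic array 2, and 1.05 between the arrays of the shared lot and day.

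These 3 probe sets end in _f_at, the suffix by which this array type marks probes shared within a gene family. A probe set of this kind can bind RNA of several heavy chain genes, so RT1-A, RT1-CE12 and RT1-CE16 are not separate measurements. Of 5 such class I probe sets, 4 were higher on both diabetic arrays without overlap, and the 5 differences ran from 0.48 to 0.66. The exception, M64795_f_at, which is listed for RT1-A, RT1-CE16 and RT1-A1, had 301 and 196 in diabetic arrays, against 119, 202 and 220 in normal arrays. Another probe set of the same clone, M64795_i_at, scattered from 31.3 to 313 among the normal arrays and gave 142 and 139 in the diabetic arrays (log2 difference 0.58, SE 1.22).

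Besides B2m and the family probe sets, 9 class I probe sets were tested, M64795_i_at among them. They were divided, 5 above and 4 below normal, with a median of 0.15. RT1-S3, a counterpart of the mouse gene for Qa-1, had 499 and 385 in diabetic arrays, against 452, 257 and 404 in normal arrays (log2 difference 0.28, SE 0.39). The difference was 0.036 without normal array 2, 0.46 without diabetic array 2 and -0.07 between the arrays of the shared lot and day. The other probe sets of RT1-S3 gave 0.15 and 0.17, and the groups overlapped in all 3. RT1-M3-1, whose mouse counterpart presents formylated bacterial peptides, had 182 and 263 in diabetic arrays, against 250, 209 and 271 in normal arrays (-0.15, SE 0.32). RT1-M5 had 193 and 135 in diabetic arrays, against 202, 161 and 136 in normal arrays (-0.02, SE 0.38). In both genes the diabetic arrays overlapped the normal ones.

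For RT1-N3 the single-gene probe set had 71.5 and 41.5 in diabetic arrays, against 98.8, 24.2 and 68.0 in normal arrays (-0.004, SE 0.86). A second probe set from the same clone, L23128_g_at, is listed for RT1-N2 and RT1-N3 and had 70.9 and 93.1 in diabetic arrays, against 20 (the floor), 50.9 and 65.2 in normal arrays (1.005, SE 0.77). The 2 thus disagree, and they place normal array 1 at opposite ends of the normal arrays. The probe set listed for RT1-M6-1 and RT1-M4 differed by -0.04 (SE 0.46). RT1-A3 and a second probe set of RT1-M3-1 were at the floor on every array.

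**Figure D2:**
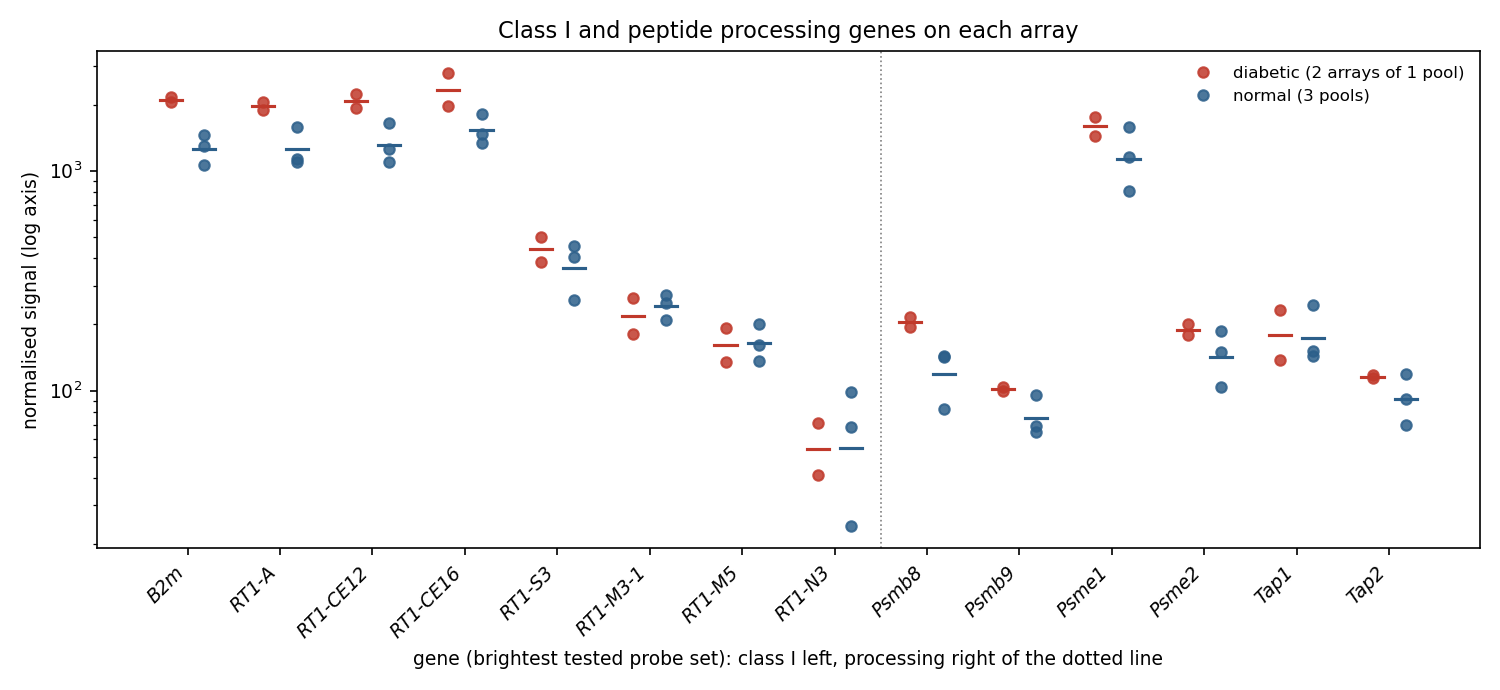
Normalised signal on a log axis of the brightest tested probe set of each class I and processing gene; points are arrays, diabetic left and normal right, and bars are means of log2 values. B2m, RT1-A, RT1-CE12, RT1-CE16, Psmb8 and Psmb9 show no overlap between groups, and signals of different genes are not comparable with each other.

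All 9 tested probe sets of the peptide processing genes lay above normal, against 48.8% of all tested probe sets. Of the 9, 4 (44.4%) showed no overlap of arrays, against 9.53% of all tested with the diabetic arrays higher. The inducible catalytic subunit Psmb8 had 215 and 194 in diabetic arrays, against 143, 141 and 82.1 in normal arrays. The groups did not overlap (log2 difference 0.79, SE 0.47; limma, unadjusted p = 0.15, adjusted p = 0.9999). The difference of Psmb8 was 0.50 without normal array 3, its lowest normal array, and 1.24 between the arrays of the shared lot and day. Psmb9, the other inducible subunit measured, had 99.5 and 103 in diabetic arrays, against 95.6, 65.1 and 68.8 in normal arrays (0.43, SE 0.47). Its dimmer probe set, D10757_at, reached 68.3 on diabetic array 1 but 20.8 on diabetic array 2, against 20 to 27.6 in normal arrays, so that here the repeat arrays disagree.

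The activator subunits pointed the same way with little separation. Psme1 had 1756 and 1443 in diabetic arrays, against 1574, 1154 and 808 in normal arrays (log2 difference 0.49, SE 0.40). On its second probe set, D45249_g_at, it had 986 and 1103 in diabetic arrays, against 760, 704 and 801 in normal arrays, without overlap (0.47, SE 0.24). The first of these differences was 0.23 without normal array 3. Psme2, the partner subunit, had 179 and 200 in diabetic arrays, against 186, 104 and 150 in normal arrays (0.40, SE 0.44, or 0.18 without normal array 2 and 0.61 without normal array 1).

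The transporter genes gave no uniform picture. Tap1 had 233 and 138 in diabetic arrays, against 246, 151 and 143 in normal arrays (log2 difference 0.04, SE 0.43). Its dimmer probe set, X57523_g_at, had 66.7 and 49.5 in diabetic arrays, against 20, 41.5 and 34.8 in normal arrays (0.90, SE 0.60). The brighter Tap1 probe set changed sign with the arrays used, at -0.33 without diabetic array 1 and 0.42 without diabetic array 2. Tap2 had 114.1 and 117.3 in diabetic arrays, against 119, 69.8 and 91.8 in normal arrays (0.34, SE 0.47, or 0.15 without normal array 2 and 0.54 without normal array 1). On the brightest probe sets both diabetic arrays of Tap2 lay within the normal range, while for Tap1 diabetic array 2 lay just below it.

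The inducible subunits were set against the constitutive proteasome. Psmb8 takes the place of the constitutive subunit Psmb5, which differed by -0.14 (SE 0.26). The log2 ratio of Psmb8 to Psmb5, taken relative to its mean in the normal arrays, was 0.96 and 0.88 in diabetic arrays, against 0.48, 0.15 and -0.63 in normal arrays. The diabetic mean, from 1 pool, was 0.92, and the SD between the 3 normal pools was 0.57. No test of this ratio was made. That mean was 0.58 without normal array 3 and 1.53 when the arrays of the shared lot and day were normalised alone. The corresponding ratios for Psmb9 and Psmb10 were not analysed here. Of 11 constitutive proteasome genes tested 5 lay above and 6 below normal, 0 passed the test, and the median was -0.05. The 3 with the largest statistics were the core subunits Psmb1 (0.31, SE 0.30), Psma1 (0.43, SE 0.42) and Psmb3 (-0.20, SE 0.28).

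For the related gene lists given from here on, the test is the same limma fit with its adjustment over all probe sets. At an unadjusted p under 0.05, 0 of the pathway genes passed, and of the cell type markers only Coro1a and Opn1sw did. Genes that fold and load class I molecules in the endoplasmic reticulum lay above normal in 5 of 5 tested cases, with a median of 0.15 and 0 past the test. The chaperone Canx had 1467 and 1198 in diabetic arrays, against 891, 871 and 1160 in normal arrays (log2 difference 0.46, SE 0.27), the disulfide isomerase P4hb differed by 0.26 (SE 0.25) and the chaperone Hspa5 by 0.15 (SE 0.46). Class I-like genes were divided, with 2 above and 3 below normal, 0 past the test and a median of -0.19. Among them were the iron regulator Hfe (0.19, SE 0.41), Mr1, which presents vitamin metabolites (-0.22, SE 0.49), and the antibody transporter subunit Fcgrt (0.12, SE 0.30).

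**Figure D3:**
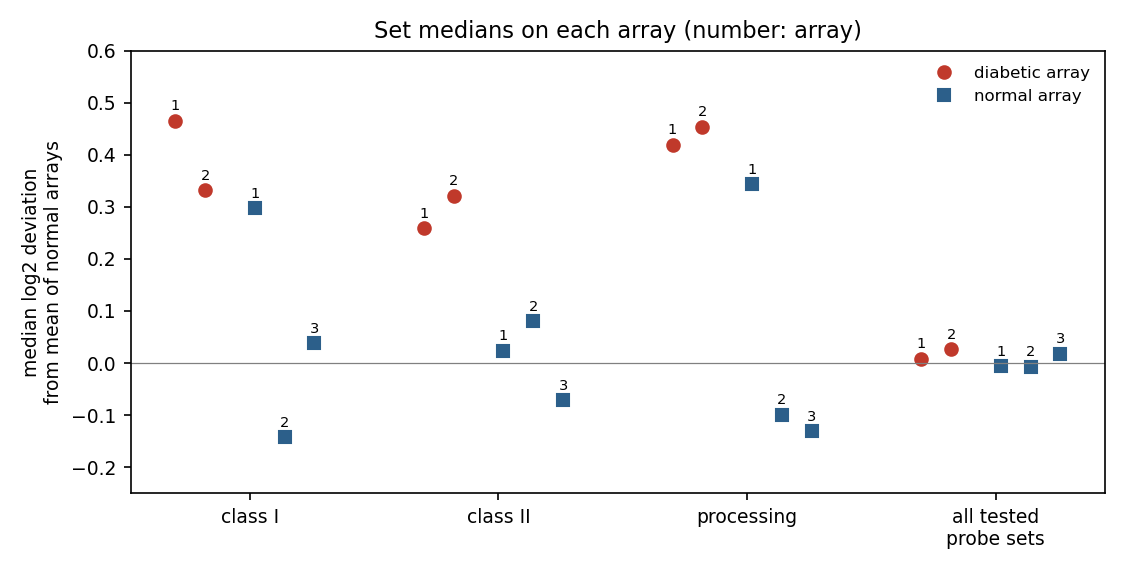
Median over the tested probe sets of each class of the log2 deviation from the mean of the normal arrays, one point per array (circles diabetic, squares normal, numbered as in the text). Both diabetic arrays lie above the normal arrays in all 3 classes, but normal array 1 reaches 0.30 in class I and 0.34 in processing, near the diabetic 0.33 to 0.47 and 0.42 to 0.45.

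By array, the median deviation of class I probe sets from the normal mean was 0.47 and 0.33 in diabetic arrays, against 0.30, -0.14 and 0.04 in normal arrays. For processing it was 0.42 and 0.45 in diabetic arrays, against 0.34, -0.10 and -0.13 in normal arrays. Normal array 1, with its high actin ratio, was thus the normal array nearest to the diabetic ones in both classes. It held the highest of the 3 normal values in 10 of 15 class I and 6 of 9 processing probe sets. When diabetic array 1 and normal arrays 2 and 3, whose actin ratios were low, were compared alone, the medians were 0.54 for class I and 0.69 for processing. Between the 2 arrays of the shared lot and day, diabetic array 2 was above normal array 3 for 30 of 38 members. The same held for 3108 of all 6118 tested probe sets, with a median difference of 0.009. In this pair the median difference was 0.46 for processing and 0.41 for class II but 0.04 for class I, in which 8 of 15 were above.

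Class II genes were uneven, and Cd74 and RT1-DMb, which had the largest differences among their brightest probe sets, were low on normal array 1. Cd74, the invariant chain, had 89.6 and 104 in diabetic arrays, against 26.3, 88.1 and 56.8 in normal arrays (log2 difference 0.92, SE 0.76). On its second tested probe set, X13044_g_at, it had 79.8 and 87.2 in diabetic arrays, against 20, 36.9 and 41.5 in normal arrays (1.42, SE 0.60, unadjusted p = 0.061 by limma). Neither overlapped, but the first difference was 0.45 without normal array 1, and 0.36 when both arrays of high actin ratio were left out. The other Cd74 probe sets were dim: X14254cds_at was at the floor on every array, and X14254cds_g_at was above it only on diabetic array 1, at 26.3.

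The peptide exchange factor is made of RT1-DMa and RT1-DMb, which in human cells (as DM) free the groove of class II molecules from the invariant chain fragment. RT1-DMb had 125 and 97.4 in diabetic arrays, against 33.3, 92.9 and 85.8 in normal arrays (log2 difference 0.78, SE 0.71). Like Cd74 it was lowest on normal array 1, and without that array the difference was 0.31. RT1-DMa, its partner, had 165 and 183 in diabetic arrays, against 228, 210 and 154 in normal arrays (-0.16, SE 0.37). On the dimmer probe set Z49761_at RT1-DMa had 32.5 and 36.1 in diabetic arrays, against 23.6, 21.2 and 26.5 in normal arrays (0.53, SE 0.47). The probe sets of this gene therefore disagree in sign, and the first gave -0.05 without normal array 1 and -0.32 without normal array 3. The 2 other RT1-DMb probe sets did not exceed 21.9 on any array.

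The antigen-presenting chains were divided. RT1-Da, the alpha chain of the molecule corresponding to human DR, had 93.4 and 130 in diabetic arrays, against 80.1, 76.8 and 71.5 in normal arrays (log2 difference 0.54, SE 0.42, or 0.31 without diabetic array 2 and 0.77 without diabetic array 1). Its second probe set, M15562_at, had 64.0 and 93.1 in diabetic arrays, against 67.4, 65.1 and 62.6 in normal arrays, and overlapped (0.25, SE 0.44). Diabetic array 2 was the higher on both. RT1-Db1, the matching beta chain, had 64.1 and 65 in diabetic arrays, against 99.9, 75.9 and 22.0 in normal arrays (0.23, SE 0.92), while X53054_at of the same gene was at the floor throughout.

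RT1-Ba, the alpha chain of the molecule corresponding to human DQ, had 127 and 191 in diabetic arrays, against 228, 150 and 158 in normal arrays (log2 difference -0.17, SE 0.39). A second probe set, M22366_at, had 152 and 156 in diabetic arrays, against 116, 131 and 121 in normal arrays (0.33, SE 0.36), again of opposite sign. The third, X07551cds_s_at, ran from 20 to 32.6 and was not tested. RT1-Bb, its beta chain, had 73.7 and 79.8 in diabetic arrays, against 67.9, 70.2 and 69.2 in normal arrays (0.15, SE 0.43). The groups did not overlap, and the difference was 0.095 without diabetic array 2. X56596_at of RT1-Bb gave -0.09 (SE 0.45), and the 3 further RT1-Bb probe sets were at the floor on every array.

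RT1-DOa, a chain of the regulator that in human cells restrains DM, had 390 and 354 in diabetic arrays, against 562, 427 and 283 in normal arrays (log2 difference -0.14, SE 0.43). Its partner RT1-DOb was at the floor on every array. RT1-Ha, of the region corresponding to human DP, was near the floor, with 30.01 and 28.8 in diabetic arrays, against 20, 32.3 and 20 in normal arrays (0.33, SE 0.53). That difference was 0.71 without normal array 2, 0.13 without normal array 3 and 0 with the floor at 50. Over class II as a whole 7 of 14 tested probe sets (50%, against 9.53% of all tested) showed no overlap, with the diabetic arrays higher, and the other 10 class II probe sets were too dim to test.

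Genes that break down and prepare antigens in endosomes lay above normal in 7 of 7 tested cases (median 0.26, 0 past the test). Ctss, the protease that degrades the invariant chain, had 1358 and 1548 in diabetic arrays, against 952, 1259 and 1036 in normal arrays (log2 difference 0.43, SE 0.26). The proteases Ctsd (0.42, SE 0.36) and Ctsb (0.26, SE 0.27) had the next largest statistics. Transcription factor genes of MHC promoters were divided, 3 above and 3 below normal of 6 tested, and 0 passed the test. The NF-kappaB subunit Nfkb1 had 345 and 210 in diabetic arrays, against 110, 193 and 144 in normal arrays (0.89, SE 0.42). Creb1, which binds the X box region, had 53.9 and 45.5 in diabetic arrays, against 97.6, 76.1 and 65.9 in normal arrays (-0.67, SE 0.48), and the Y box factor subunit Nfyc differed by -0.26 (SE 0.27).

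Of 12 tested interferon signalling genes 8 lay above and 4 below normal, with a median of 0.17 and 0 past the test. The largest statistics belonged to the transducers Stat3 (log2 difference 0.89, SE 0.57) and Stat2 (-0.45, SE 0.41) and the feedback inhibitor Socs3 (-0.79, SE 0.72). The Stat3 signal was 192 on diabetic array 1 but 52.6 on diabetic array 2, against 37.9 to 77.7 in normal arrays. Of the co-stimulation and T cell contact genes 3 were tested, the adhesion molecule Icam1 (0.47, SE 0.39), the co-stimulator Cd86 (0.41, SE 0.46) and Cd48 (-0.08, SE 0.44), with 0 past the test. Cd80 was at the floor on every array.

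**Figure D4:**
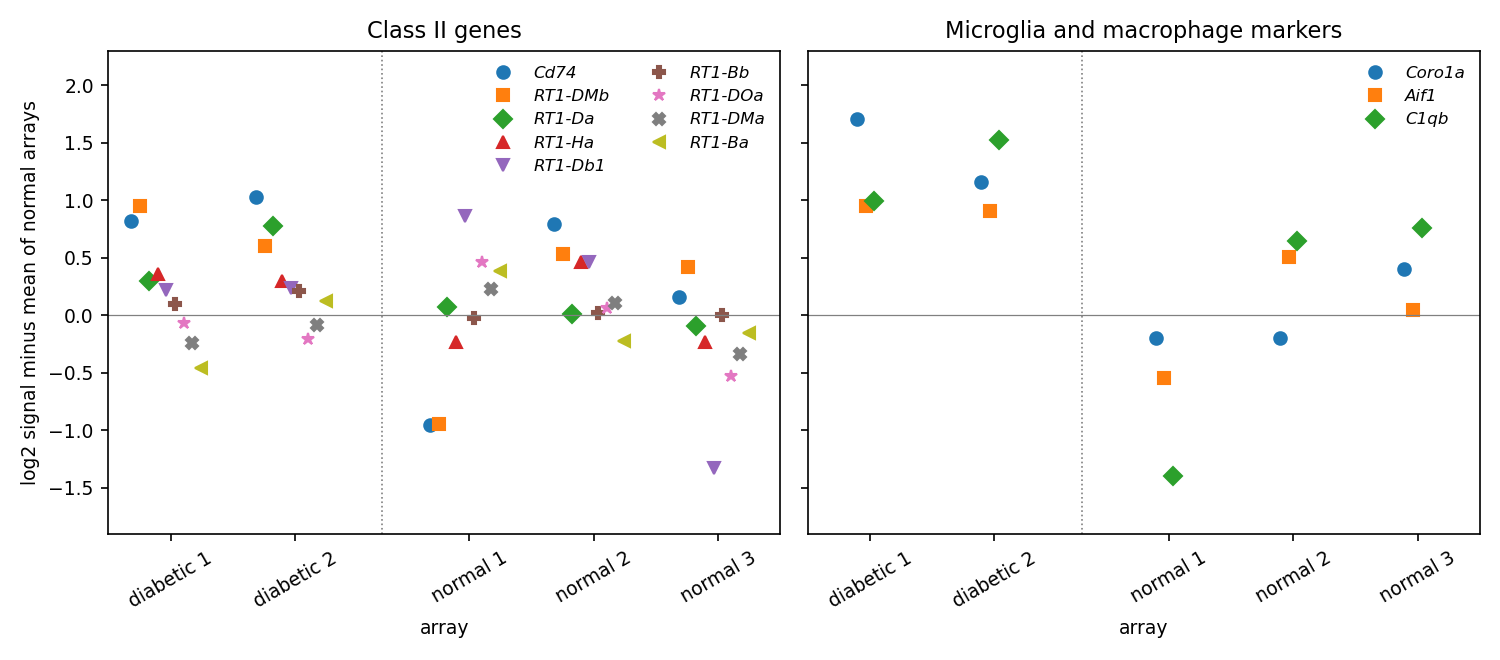
Log2 signal minus the mean of the normal arrays, by array, for the brightest tested probe set of 9 class II genes (left) and of the 3 microglia and macrophage markers with the largest statistics (right). Cd74 and RT1-DMb are lowest on normal array 1, as are C1qb and Aif1. The markers Ptprc, Cd53, Cd14, Cx3cr1 and C1qc, which are not drawn, have their highest normal value on that array. Cd74, RT1-DMb, RT1-Da, RT1-Bb and all 3 drawn markers are above every normal array on both diabetic arrays.

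Markers of microglia and macrophages also lay mostly above normal, with 0 past the adjusted threshold. Of 10 tested markers 8 lay above and 2 below normal, with a median log2 difference of 0.41, and 5 were higher in diabetic arrays without overlap, as were 9.53% of all tested probe sets. The 2 below normal were the microglial receptor Cx3cr1 (-0.41, SE 0.46) and C1qc (-0.18, SE 0.32), the partner chain of C1qb. The summed signal of all 10 tested markers was 1172 and 1266 in diabetic arrays, against 945 to 973 in normal arrays. The actin-binding protein Coro1a had 75.0 and 51.2 in diabetic arrays, against 20, 20 and 30.3 in normal arrays (1.43, SE 0.51). The microglial gene Aif1 had 96.5 and 93.8 in diabetic arrays, against 34.2, 70.8 and 51.5 in normal arrays (0.93, SE 0.58), and the complement subunit C1qb 208 and 300 in diabetic arrays, against 39.4, 163 and 176 in normal arrays (1.26, SE 0.91). Aif1, C1qb and Lyz2 were lowest on normal array 1, the array on which Cd74 and RT1-DMb were lowest. In contrast, Ptprc, Cd53, Cd14, Cx3cr1 and C1qc had their highest normal value on that array. The sum of all 10 markers was 973 on normal array 1, against 948 and 945 on normal arrays 2 and 3. The receptor genes Itgam and Csf1r were too dim to test, with no value above 26.3 and 39.0. The part of microglia in the class I, class II and processing differences was not tested.

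Of 6 tested lymphocyte markers 2 lay above and 4 below normal, with a summed signal of 382 and 403 in diabetic arrays, against 371 to 495 in normal arrays. The T cell genes Cd2, Cd3d and Cd8a were at the floor on every array. Among the 6, the kinase Lck differed by -0.50 (SE 0.33), Cd5 by -0.67 (SE 0.51) and Cd4 by 0.74 (SE 0.75). Endothelial markers lay below normal in 3 of 3 tested cases, namely Flt1 (-0.25, SE 0.39), Pecam1 (-0.24, SE 0.61) and Kdr (-0.06, SE 0.27), with summed signals of 2196 and 2737 in diabetic and 2286 to 3085 in normal arrays. Photoreceptor genes lay above normal in 7 of 7 tested cases, with sums of 12355 and 13189 in diabetic arrays, against 9757, 9363 and 4124 in normal arrays. The short-wave opsin Opn1sw differed by 1.35 (SE 0.45), the arrestin Sag by 1.12 (SE 0.59) and the channel Cnga1 by 0.91 (SE 0.47). Normal array 3, with the lowest sum, shared lot and day with diabetic array 2. Between these arrays Opn1sw differed by 1.25, Sag by 2.04 and Cnga1 by 1.97. Of 9 Müller cell markers 2 lay above and 7 below normal, among them Clu (0.56, SE 0.30), Car2 (-0.34, SE 0.27) and Aqp4 (-0.48, SE 0.39). The part of photoreceptor RNA in the class I and processing differences was not tested.

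Among class I and processing genes, the 7 with the interferon element in their promoter had a median log2 difference of 0.34 over their brightest probe sets, from -0.004 for RT1-N3 to 0.79 for Psmb8, and 6 lay above normal. The 6 tested genes without a match in the stretch searched had a median of 0.46, from -0.15 for RT1-M3-1 to 0.66 for RT1-CE12. Of these 6, 4 lay above normal. B2m and Psmb8 both carry the element and showed no overlap, whereas Tap2 and Psme2, which carry it too, overlapped. Psmb9 has no match and showed no overlap on its brightest probe set. The genes without a match include RT1-CE12 and RT1-CE16, whose family probe sets cannot be assigned to the promoter of 1 gene. Whether the element bears on the differences was not tested.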

How the data were processed

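Probe set signals of 5 Affymetrix RG_U34A arrays (chip type per the file headers) were analysed. Each deposited value is an intensity on a linear scale, not on a common scale between arrays (2% trimmed means differ 3.52 times); how the authors summarised them is not given in the sources used here. Deposited experiment records served only to place arrays by chip lot and hybridisation day. Values were quantile-normalised, floored at 20 (above the 20th percentile) and converted to log2; 59 control probe sets and the dimmest 30% were left out. The 2 diabetic arrays were averaged and compared with 3 normal pools in limma 3.58.1 (R 4.3.3; lmFit, eBayes with trend, two-sided, Benjamini-Hochberg over 6118 probe sets, 2 residual and 3.54 prior degrees of freedom), so the diabetic pool is assumed to vary like normal pools. The fit was tested on simulated data. The labels call the normal arrays biological replicates. Symbols come from the platform annotation; 45 of 51 members matched a RefSeq gene table of GRCr8 with 0 changes. Gene coordinates are given only for RefSeq sequences, as no build is named for the array. For each gene the brightest tested probe set is given first. Named genes were all members and, of each list of related genes or cell markers, the 3 genes with the largest absolute moderated statistic. Glul, Kcnj10, Cx3cr1, C1qc, Lyz2, Ptprc, Cd53, Cd14 and genes too dim to test were named beyond this rule, after their values were seen. Members and lists were chosen with earlier results of these data known, so no test over a list is made. Alternatives were 2 scalings, 2 floors, 2 filters, 2 unadjusted thresholds, all 5 arrays as samples of their own, eBayes with no trend, 1 probe set per gene, each array left out, the arrays of 1 lot and day, and the 3 arrays with a low actin ratio. Figures were drawn with matplotlib 3.10.9.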

Additional observations from a re-analysis of the deposited data

How the results depend on the processing

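No paired analysis was possible because the labels give the groups only 1 replicate number in common, and it marks a technical repeat in one of them. With the deposited values unscaled, the median of all tested probe sets itself moved to 0.47, and the medians of class I, class II and processing were 0.97, 0.70 and 0.97, or 0.50, 0.23 and 0.50 above that shift; 10 members then showed no overlap above normal, and the values of RT1-M3-1 (0.36), RT1-M5 (0.52), RT1-N3 (0.29), RT1-Ba (0.36), RT1-DMa (0.36) and RT1-DOa (0.41) turned positive. Relative to the shift of 0.47 these 6 were -0.11, 0.04, -0.18, -0.11, -0.11 and -0.07, so that only RT1-M5 lay above it. Each of the 6 also turned positive in another alternative, and their direction is not settled. Scaling to a common median gave 0.035 for RT1-N3. The floor of 50 gave 0.20 for class II and -0.16 for RT1-Db1. Without the filter the class I median was 0.28 and the class II median 0.075, and limma called 170 probe sets, of which 162 had all normal arrays at the floor and so no spread; 1 was a member, X14254cds_g_at of Cd74. With the 5 arrays as separate samples limma called 13 probe sets and 0 members. Unadjusted, 98 probe sets and 1 member had p under 0.05, and 22 probe sets and 0 members p under 0.01. Leaving out single arrays gave ranges of 0.18 to 0.37 for class II, -0.59 to 0.43 for RT1-N3, -0.29 to 0.24 for RT1-M5, -0.47 to 0.12 for RT1-Ba, -0.39 to 0.10 for RT1-DOa, -0.33 to 0.42 for Tap1, -0.42 to 0.67 for RT1-Db1 and -0.42 to 0.12 for RT1-M3-1. The arrays of 1 lot and day, normalised alone, gave 0.045 for class I, 0.37 for class II and 1.53 for Psmb8 over Psmb5. Without the arrays of high actin ratio RT1-M5 was 0.40, RT1-N3 0.86 and RT1-DOa 0.17. The cause of these moves was not tested. Over all 18 alternatives, where run, 13 of 23 genes kept their sign, among them B2m (0.62 to 1.25), RT1-A (0.57 to 1.18), Psmb8 (0.50 to 1.31) and Cd74 (0.36 to 1.39). Each upper value came from the unscaled deposited values, and relative to the shift of 0.47 these were 0.78, 0.70, 0.83 and 0.91. The 5 arrays as separate samples and eBayes with no trend change only the test of a gene, not its difference. Signals near the floor limit most class II probe sets.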

Other observations

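One further probe set, rc_AA859372_s_at, is listed with B2m among 6 symbols that include ribosomal RNA, and was left out of the members for that reason. Its deposited signal was 352 and 7178 on diabetic arrays 1 and 2, against 97.2, 356 and 10900 on normal arrays 1, 2 and 3. The 2 high values belong to the arrays of the shared chip lot and hybridisation day, 1 from each group. The normalised signal of the B2m member was 2167 and 1289 on those arrays.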
